A study of Mus musculus with 18 samples.

Results

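Lung macrophages of the mouse were set against 6 other tissue macrophage populations: spleen red pulp macrophages, Kupffer cells of the liver, microglia of the brain, peritoneal cavity macrophages, and the macrophages of the small intestine (ileum) and of the large intestine (colon). The lung population was chosen by its label and holds 2 libraries, lung replicate 1 and lung replicate 2, of the 18 libraries in the table. Each of the 6 other populations also has 2 libraries, which makes 12, and bone marrow monocytes and neutrophils make up the remaining 4. All cells were sorted from C57BL/6 mice with no genotype or treatment given, and their polyadenylated RNA was indexed, pooled and amplified by in vitro transcription before sequencing. Library names place lung, spleen, liver and bone marrow cells in experiment 2, and brain, peritoneal and intestinal cells in experiment 1. Each population was prepared in 1 experiment only, so in the comparison with all 6 the population and the experiment cannot be told apart. The comparison of lung with spleen red pulp macrophages and Kupffer cells, which stays within experiment 2, is therefore given beside it. The labels do not say whether the replicates came from separate mice, so p-values measure the spread between these libraries, which may be technical. The labels name no age, sex or surface protein used for sorting.

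The lung is known to hold alveolar and interstitial macrophages. Alveolar macrophages live in the air spaces, where they take up and degrade surfactant, the film of phospholipid and protein that alveolar type 2 cells secrete. Their development depends on the cytokine GM-CSF, which induces PPARγ, a lipid-sensing nuclear receptor, and they are known for much CD11c (Itgax) and Siglec-F and little CD11b (Itgam). Interstitial macrophages live in the tissue itself and are known for Cx3cr1 and the C1q chains, as macrophages of many other organs are.

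The values are the authors' normalised reads per RefSeq transcript, which are not divided by transcript length, so each gene is compared with itself across libraries and not with other genes. Reads in genes were estimated by taking the most common positive value of each column as a single read. They came to 1366790 in lung replicate 1 and 785978 in lung replicate 2, within the range of 588172 to 1580371 over all 18 libraries. Spearman's correlation across the 11998 genes tested was 0.885 between the lung libraries, and between 0.623 and 0.780 for lung libraries with libraries of the 6 other macrophage populations. These genes share depth and library, and are not independent replicates. Differences are of log2(normalised reads + 1.11), given with their standard error from limma over all 18 libraries, and a gene was called where the Benjamini-Hochberg adjusted p was below 0.05 and the difference was at least 1 in size.

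In lung macrophages 994 genes (8.28%) were called higher and 1201 (10.0%) lower than the mean of the 6 other populations. Within experiment 2, 948 genes (7.90%) were called higher and 1219 (10.2%) lower than the mean of spleen red pulp macrophages and Kupffer cells. These shares over all genes are the background for every list count given below. Against every 1 of the 6 populations taken singly, 171 genes (1.43%) were called higher and 151 (1.26%) lower. The 2 lung libraries both lay above all 12 others for 650 genes (5.42%) and below all 12 for 445 genes (3.71%). The median difference over all genes tested was -0.07 in the comparison with 6 and -0.04 within experiment 2. Without lung replicate 2 these counts fell to 540 higher and 546 lower against 6, and to 524 higher and 699 lower within experiment 2. A gene seen in lung alone no longer passes the filter on low values, which asks for 5.53 normalised reads in 2 libraries, once either lung library is left out.

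**Figure D1:**
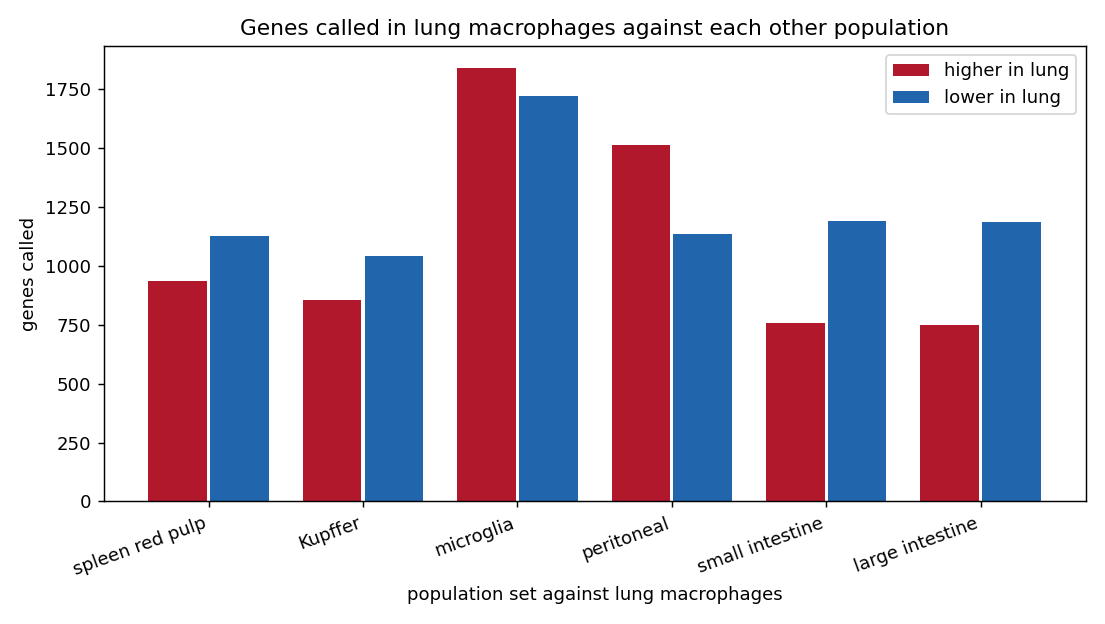
Number of genes called higher (red) and lower (blue) in lung macrophages against each of the 6 other macrophage populations on the x axis, counted on the y axis out of 11998 genes tested. Microglia gave the most calls, with 1842 (15.4%) higher and 1722 (14.4%) lower in lung, and peritoneal macrophages 1512 (12.6%) higher and 1137 (9.48%) lower. Spleen red pulp macrophages gave 936 (7.80%) and 1127 (9.39%), Kupffer cells 855 (7.13%) and 1044 (8.70%), small intestine macrophages 757 (6.31%) and 1189 (9.91%), and large intestine macrophages 750 (6.25%) and 1185 (9.88%).

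The 4 genes taken as marks of the lung cells were all far higher in both lung libraries than in any other macrophage library. Chil3, which encodes the chitinase-like secreted protein Ym1, stood at 4672 and 8072 normalised reads in the lung libraries. It read 35.2 and 69.9 in spleen red pulp macrophages, 39 and 0 in Kupffer cells, 0 in both in microglia, 0 in both in peritoneal macrophages, 22.2 and 30.2 in small intestine and 56.6 and 31.1 in large intestine macrophages. Lung and other macrophages did not overlap, and the lung mean was 269 times the mean of the 6 others. Its difference was 9.44 ± 0.72 on the log2 scale against 6 and 8.38 ± 0.81 within experiment 2 (limma adjusted p 1.95e-08 and 5.08e-07). Krt79, a keratin of epithelial cells, had 849 and 795 normalised reads in lung libraries. In the 6 other populations it read 1.99 and 2.92 (spleen), 0 in both (Kupffer), 0 in both (microglia), 0 in both (peritoneal), 0 and 2.65 (small intestine) and 0 and 1.16 (large intestine). Its differences were 9.03 ± 0.61 against 6 and 8.70 ± 0.69 within experiment 2, again with no overlap. Krt79 passed the filter on low values only through the lung libraries.

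Cidec, a protein of lipid droplet fusion, had 491 and 352 normalised reads in lung libraries. Its values elsewhere were 0 and 1.46 (spleen), 1.04 and 0 (Kupffer), 0 in both (microglia), 0 in both (peritoneal), 1.12 and 1.99 (small intestine) and 0 in both (large intestine). None of these libraries came near the lung level, and the differences were 8.17 ± 0.62 against 6 and 8.02 ± 0.71 within experiment 2. Car4, a membrane-anchored carbonic anhydrase, had 547 and 510.3 normalised reads in lung libraries. It had 8.97 and 4.38 in spleen, 7.28 and 0 in Kupffer cells, 0 in both in microglia, 0 in both in peritoneal, 14.6 and 12.6 in small intestine and 3.54 and 7.56 in large intestine macrophages. The Car4 differences were 7.16 ± 0.63 and 6.80 ± 0.72, and all 4 genes were called higher in both comparisons.

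**Figure D2:**
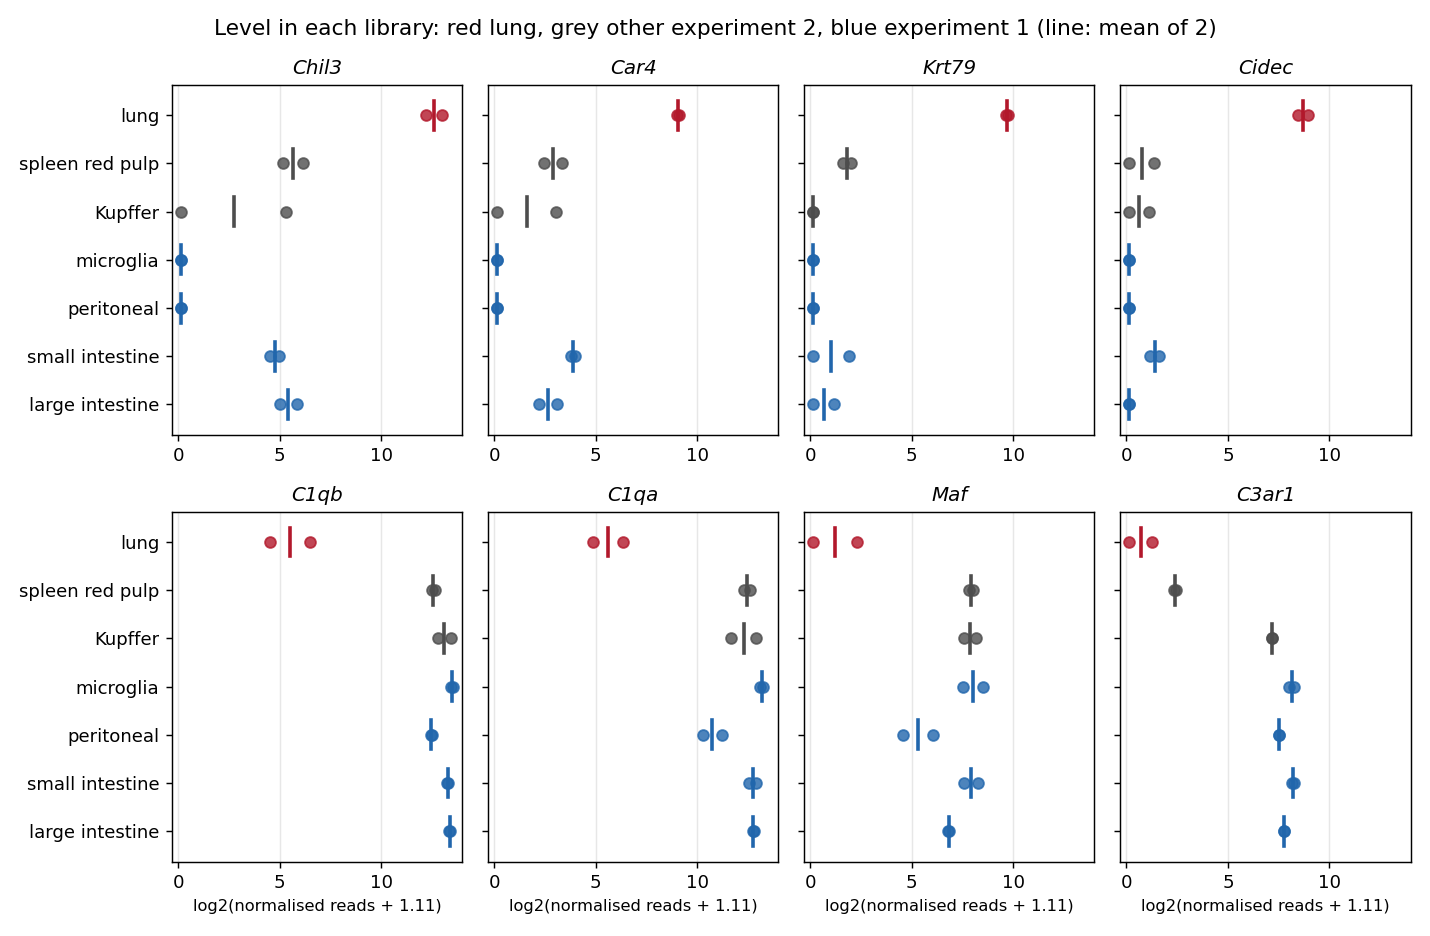
Level of 8 genes, 1 panel each, as log2(normalised reads + 1.11) on the x axis in the 7 macrophage populations down the y axis, with lung in red at the top, the other experiment 2 populations in grey and experiment 1 in blue (points, 1 library each; lines, mean of 2). In the upper row (Chil3, Car4, Krt79 and Cidec) both lung points lie above all 12 others, and in the lower row (C1qb, C1qa, Maf and C3ar1) both lie below them.

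The longer list of 23 lung macrophage markers was high throughout. All 23 were called higher against 6, where 8.28% of all genes were, and 20 without lung replicate 1 and 18 without lung replicate 2 were called. Their median difference was 5.28, against -0.07 over all genes. Within experiment 2, 19 of the 23 were called higher, with a median of 4.99. For 17 markers both lung libraries lay above all 12 others, where 5.42% of all genes did so, and 13 were called higher against each of the 6 populations. The list was drawn up from known lung markers with earlier results of these data known, so its direction is no independent evidence. Some of its members also count among the higher calls against 6 of lists below. They include Krt79, Krt19, Perp and Plet1 (epithelial), Pparg, Fabp1 and Lpl (lipid uptake) and Cidec (lipid droplets). Csf2rb (GM-CSF receptor), Abcg1 (cholesterol efflux), Ctsk (cathepsins) and Atp6v0d2 (proton pump) are further ones.

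Several markers were also high in 1 or 2 other populations. Siglecf, the Siglec-F receptor, had 197 and 229 normalised reads in lung libraries and 49.8 and 68.6 in microglia, and at most 8.72 in any other macrophage library. Itgax had 282 and 305 in lung libraries, against 212 and 245 in small and 307 and 281 in large intestine macrophages, so lung overlapped with large intestine and lay above small intestine, while the other 8 libraries held 0 to 61.4. Marco, a scavenger receptor for unopsonised particles, had 527 and 853 in lung libraries and 839 and 1117 in Kupffer cells, and was not called within experiment 2 (difference 1.13 ± 0.54, adjusted p 0.163). Pparg had 167 and 112 normalised reads in lung libraries, against 144 and 130.01 in spleen red pulp macrophages and 12.5 and 14.1 in Kupffer cells. Lung and spleen overlapped for Pparg, whose difference was 4.11 ± 0.55 against 6 and 1.63 ± 0.62 within experiment 2 (adjusted p 0.0756). Il18 and Mrc1, the mannose receptor, were the other 2 markers that missed the call within experiment 2, with differences of 1.02 ± 0.36 and 0.39 ± 0.61. The Mrc1 call against 6 ended without lung replicate 2 (adjusted p 0.181).

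Markers of lung interstitial macrophages were low in the lung libraries. Of 14 such markers, 12 were called lower and none higher against 6, beside 10.0% lower over all genes, and 10 were called lower within experiment 2 (10.2%). The summed level of that list was 912 and 486 in lung libraries, against 20020 to 36620 in spleen and Kupffer libraries and 14830 to 44860 in experiment 1. Their median difference was -3.88 against 6. Marker lists of other tissues varied more. Of 8 spleen red pulp markers 5 were called lower against 6 (4 without lung replicate 1 and 2 without lung replicate 2) and 8 within experiment 2, and their sum of 187 and 145 in lung libraries lay within the 105 to 248 of experiment 1. Spic and Gfra2 of that list differed by -6.85 and -6.47 within experiment 2, but by -2.27 and -2.50 against 6, where both calls ended without lung replicate 2 (adjusted p 0.105 and 0.236). Kupffer cell markers, which include Marco, gave 1 higher and 4 lower of 10 against 6 (the lower ones fell to 1 without lung replicate 2) and 0 higher and 7 lower within experiment 2. They summed to 766 and 972 in lung libraries, against 12640 to 18630 in Kupffer cells, 1703 and 2009 in spleen, 839 to 1094 in peritoneal, 100 to 292 in intestinal and 4.64 to 20.7 in microglia libraries. Peritoneal macrophage markers gave 1 higher and 3 lower of 10 against 6 (the higher one ended without lung replicate 2, and the lower ones came to 1 without lung replicate 1 and 0 without lung replicate 2) and none in either direction within experiment 2, with sums of 139 and 179 in lung libraries, 51.8 to 139 in spleen and Kupffer libraries and 11640 and 13220 in peritoneal macrophages. Of 12 microglia markers 11 were called lower against 6 (9 without lung replicate 1 and 6 without lung replicate 2) and 3 within experiment 2, and Tmem119, one of them, had 4.42 and 0 normalised reads in lung libraries against 6276 and 6767 in microglia. Of 10 intestinal macrophage markers 7 were called lower against 6 and 5 within experiment 2 (4 without lung replicate 1 and 3 without lung replicate 2). The lung libraries thus held high levels of alveolar and low levels of interstitial macrophage markers.

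Among the 15 highest named genes were 8 of these markers and 7 further genes. Atp6v0d2, a subunit of the proton pump that acidifies lysosomes, had 828 and 622 normalised reads in lung libraries and 0 to 5.20 in the 12 others (difference 8.39 ± 0.70). Ctsk, the collagen-degrading cathepsin K known from osteoclasts, had 335 and 332 in lung libraries and 0 to 5.84 in the others (7.27 ± 0.68). Slc39a2, a zinc transporter, had 154 and 142 in lung libraries and was at 0 in 11 of the 12 others. Plet1, a surface protein of epithelial progenitors, had 761 and 793 in lung libraries and 0 to 5.97 elsewhere (8.18 ± 0.60). Atp6v0d2, Ctsk, Slc39a2 and Plet1 are markers of the list. The 15 were taken only from genes whose lung libraries both lie above all 12 others, so lack of overlap was part of their choice. Atp6v0d2, Slc39a2, Gal and Cpne5 passed the filter on low values only through the lung libraries. Outside the list, F7, coagulation factor VII, had 547 and 637 normalised reads in lung libraries and 40.3 and 25.3 in peritoneal macrophages, the highest of the others. Cd2, an adhesion receptor best known from T cells, had 659.9 and 671 in lung libraries and 0 to 31.3 elsewhere. Gal, which encodes the neuropeptide galanin, had 154 and 134 in lung libraries and was at 0 in 10 of the 12 others. Cpne5, a calcium-dependent phospholipid-binding protein, had 346 and 152 in lung libraries and 0 to 2.65 elsewhere. Wfdc21, a small protein of the whey acidic protein family, had 332 and 479 in lung libraries and 43.7 and 3.03 in Kupffer cells. These 5 genes were called higher within experiment 2 as well, with differences of 7.18 ± 0.86 for F7, 5.35 ± 0.98 for Cd2, 6.48 ± 0.70 for Gal, 7.09 ± 0.67 for Cpne5 and 5.15 ± 0.72 for Wfdc21.

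The Ear genes, ribonucleases named for the eosinophil, were also high. Ear1 had 737 and 520.3 normalised reads in lung libraries, against 0 to 35.6 (median 7.85) in the 12 others. Ear2 had 3219 and 2039 against 0 to 334 (median 81.8), and EAR3 had 1919.6 and 1396 against 0 to 179 (median 41.8). Ear10 had 133 and 123 against 0 to 9.29 (median 0.913). All 4 were called higher against 6 (differences 6.60 ± 0.44, 6.36 ± 0.32, 6.67 ± 0.30 and 5.56 ± 0.54) and within experiment 2 (4.99 ± 0.50, 3.45 ± 0.36, 3.55 ± 0.34 and 3.94 ± 0.61). The transcripts of this family are close copies that may share reads, which was not measured, so how much each gene contributed is uncertain. EAR3 was among the 15 highest, while Ear10 was added after its values were seen. The eosinophil and mast cell marker list had 0 of its 4 tested members called higher against 6, and its summed level was 0.632 and 6.64 in lung libraries.

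The promoters of Ear1 and Ear2 show how alike the copies are. The windows run from 250 bases before to 50 after the start of each gene (RefSeq, GRCm38.p6, coordinates of that build, whereas the authors' reads were placed on mm9), and 294 of 303 aligned positions were identical (97%). Cidec is printed with them as a marker on another chromosome. Capitals mark the letters TTGCNNAA, a short form of the sequence that C/EBP factors bind, searched on both strands.
Ear1, chr14:43819590-43819889, minus strand: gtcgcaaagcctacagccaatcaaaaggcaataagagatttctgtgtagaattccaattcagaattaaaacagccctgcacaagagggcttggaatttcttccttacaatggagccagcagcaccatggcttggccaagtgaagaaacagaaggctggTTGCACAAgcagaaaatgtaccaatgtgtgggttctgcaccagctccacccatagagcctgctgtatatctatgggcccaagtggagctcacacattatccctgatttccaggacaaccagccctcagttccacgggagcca
Ear2, chr14:44102404-44102703, plus strand: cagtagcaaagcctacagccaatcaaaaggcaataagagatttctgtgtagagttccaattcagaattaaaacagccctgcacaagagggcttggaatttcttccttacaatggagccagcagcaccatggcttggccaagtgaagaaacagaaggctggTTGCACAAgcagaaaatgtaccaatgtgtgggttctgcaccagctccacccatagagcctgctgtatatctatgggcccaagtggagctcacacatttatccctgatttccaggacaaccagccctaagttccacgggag
Cidec, chr6:113434715-113435014, minus strand: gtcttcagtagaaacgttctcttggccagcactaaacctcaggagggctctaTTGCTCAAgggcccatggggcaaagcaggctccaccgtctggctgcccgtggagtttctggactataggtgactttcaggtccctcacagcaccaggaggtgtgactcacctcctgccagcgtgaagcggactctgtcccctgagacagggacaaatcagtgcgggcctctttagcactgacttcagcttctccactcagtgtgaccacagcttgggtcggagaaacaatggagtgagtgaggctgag
Of the 23 markers 17 had a promoter in the table, and 7 of these held the letters (41.2%), namely Cidec, Ctsk, Ear1, Ear2, Fabp1, Plet1 and Pparg. Of all 27025 promoters 12.2% held them, and of those of genes tested 10.4%. The share was 14.9% for genes called higher and 11% for those called lower against 6. Ear1 and Ear2 are not separate cases, given their shared sequence. The direct repeat bound by PPARγ and its partner RXR, AGGTCA written again after 1 free base, was in 0 of the 17 marker promoters and in 0.0481% of all. With so rare a run of letters, 0 of 17 does not set the markers apart from other promoters. The letters TTCNNNGAA, a short form of the sequence that STAT factors bind, were in 1 of the 17 (5.88%, Chil3), beside 9.55% of all promoters. A match is a run of letters and not a measured site.

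Genes of lipid uptake and storage were higher in lung macrophages. Of 15 tested genes of PPARγ and lipid uptake, 8 were called higher and 1 lower against 6, beside 8.28% and 10.0% of all genes, with a median difference of 2.13. Within experiment 2, 6 were called higher and 2 lower (1 lower without either lung library), with a median of 1.49. Olr1, the receptor for oxidised low-density lipoprotein, had 135 and 214 normalised reads in lung libraries and 0 to 5.42 (median 0.281) in the 12 others. Its difference was 6.56 ± 0.66 against 6 and 6.97 ± 0.75 within experiment 2. Fabp1, the liver form of the fatty acid binding proteins, had 233 and 250.2 in lung libraries, with 73.8 and 25.2 in Kupffer cells as the highest of the others. Fabp4, the form of adipocytes and a known PPARγ target, had 161 and 179 in lung libraries, against 232 and 291 in peritoneal macrophages, which were higher still, and 0.582 to 22.2 in the other 10 libraries. Fabp5 had 225 and 170.3 in lung libraries and 0 to 68.8 (median 12.8) in the others, with no overlap. Lpl, lipoprotein lipase, had 1914 and 2177 in lung libraries, against 941 and 983 in Kupffer cells and 18.8 to 594 in experiment 1. Msr1, a scavenger receptor for modified lipoproteins, went the other way, with 18.3 and 24.4 in lung libraries and 5.56 to 751 (median 135) elsewhere. The Cd36 call ended without lung replicate 2, both against 6 and within experiment 2 (adjusted p 0.182 and 0.151).

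Lipid droplet genes were higher as well. Of 14 tested, 7 were called higher and 0 lower, both against 6 and within experiment 2, with medians of 1.65 and 1.31. For all 7 both lung libraries lay above the 12 others, where 5.42% of all genes did so, and 519 of the 994 genes called higher against 6. Mgll, which splits monoglycerides, had 1019 and 1255 normalised reads in lung libraries and 0 to 226 (median 73.1) elsewhere (difference 4.71 ± 0.30, within experiment 2 2.92 ± 0.34). Abhd5, the activator of the main triglyceride lipase, had 145 and 99.6 in lung libraries and 1.88 to 20 (median 9.0) elsewhere (3.78 ± 0.56). Plin2, the coat protein of lipid droplets, had 929.9 and 917 in lung libraries, against 472 and 465 in peritoneal macrophages and 23.2 to 472 over all 12 (2.60 ± 0.22). Genes of the coat, of fusion and of lipolysis were among these 7. Dgat2, a triglyceride-forming enzyme, lost its call against 6 without either lung library (adjusted p 0.0637 and 0.0883), and likewise within experiment 2 (0.0753 and 0.103).

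In fatty acid oxidation, 8 of 21 tested genes were called higher and 0 lower against 6, and 5 were called higher within experiment 2 (4 without lung replicate 1 and 3 without lung replicate 2). Acaa1b, a thiolase of peroxisomes, had 294 and 360.3 normalised reads in lung libraries and 4.70 to 85.2 (median 26.4) elsewhere (difference 3.81 ± 0.33). Cpt1a, which brings fatty acids into mitochondria, had 145 and 146 in lung libraries and 29.1 to 125 (median 62.7) in the others (1.23 ± 0.26). Of fatty acid synthesis genes 1 of 15 was called higher and 1 lower against 6, and 2 higher and 1 lower within experiment 2. The higher calls were fewer without either lung library.

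Cholesterol genes were called in both directions. In cholesterol synthesis 4 of 21 genes (Mvd, Stard4, Fdft1 and Msmo1) were called higher against 6 and 5 within experiment 2. Both counts fell without either lung library. That list summed to 864 and 701 in lung libraries and to 1007 and 758 in large intestine libraries. Of 14 efflux and LXR genes 1 was called higher and 4 lower against 6, and 1 higher and 6 lower within experiment 2 (medians -0.07 and -0.50). The higher one was Abcg1, which exports cholesterol and is needed for surfactant lipid clearance, with 918 and 1068 normalised reads in lung libraries and 37.8 to 216 (median 90.5) elsewhere (difference 3.47 ± 0.27, within experiment 2 2.65 ± 0.30). Abca1, the exporter to lipid-poor apolipoprotein, had 2.53 and 17.7 in lung libraries and 18.7 to 152 (median 33) elsewhere, and its calls against 6 and within experiment 2 ended without lung replicate 1 (adjusted p 0.253 and 0.53). The 2 exporters thus stood on opposite sides. Apoe, apolipoprotein E, had 287 and 149 in lung libraries, below all 12 others, of which microglia came nearest (480.1 and 337), with a difference of -4.27 ± 0.27 against 6 and -4.49 ± 0.31 within experiment 2. Nr1h3, the LXRα receptor, had 98.6 and 62 in lung libraries, against 736 and 783 in spleen and 1065 and 929 in Kupffer libraries. It was not called against 6 (0.90 ± 0.50) and was called lower within experiment 2 (-3.45 ± 0.56), and experiment 1 libraries held 0 to 58.2.

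Lysosome genes were called in both directions. Of 17 cathepsins and cystatins 5 were called higher and 1 lower against 6, with a median of -0.25. Within experiment 2 they were 5 higher and 2 lower, with a median of 0.28. Ctsd, the main aspartic protease of lysosomes, had 6246 and 6375 normalised reads in lung libraries, against 5441 and 6327 in microglia, 2286 and 2727 in spleen and 195 to 6327 over experiment 1. Ctss, which trims the invariant chain for antigen presentation, had 3042 and 2788 in lung libraries and 159 to 2426 (median 944) in the others (difference 1.77 ± 0.25, within experiment 2 2.24 ± 0.29). Lgmn, the asparagine-specific legumain, had 72.1 and 101 in lung libraries and 189 to 3907 (median 925) elsewhere, and was called lower against each of the 6 populations (-3.30 ± 0.22). In the proton pump 4 of 17 subunits were called higher and 1 lower against 6, with a median of 0.60 beside -0.07 over all genes, and 4 higher and 0 lower within experiment 2, with a median of 0.61. The list summed to 5047 and 4507 in lung libraries, above all 12 others (2394 to 3461). The higher calls were led by Atp6v0d2, and the other 3 against 6 differed by 1.41 or less. They numbered 2 without lung replicate 1 and 4 without lung replicate 2 against 6, and 1 without lung replicate 1 and 3 without lung replicate 2 within experiment 2. The lower one, Atp6v0a2, had 25.9 and 1.11 in lung libraries (-1.96 ± 0.61), and its call ended without lung replicate 2 (adjusted p 0.919). Among phospholipid and lysosomal lipases 3 of 18 were called higher and 7 lower against 6, and 3 higher and 6 lower within experiment 2. The higher calls were fewer without either lung library. Lpcat2, which remodels phosphatidylcholine and forms platelet-activating factor, had 4.42 and 3.32 in lung libraries and 64.3 to 603 (median 129) in the others (-4.89 ± 0.24). Pla2g7, which breaks down platelet-activating factor, had 3.79 and 4.43 in lung libraries and 3.71 to 713 elsewhere, and at 3.76 and 3.71 in microglia (-4.47 ± 0.29).

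**Figure D3:**
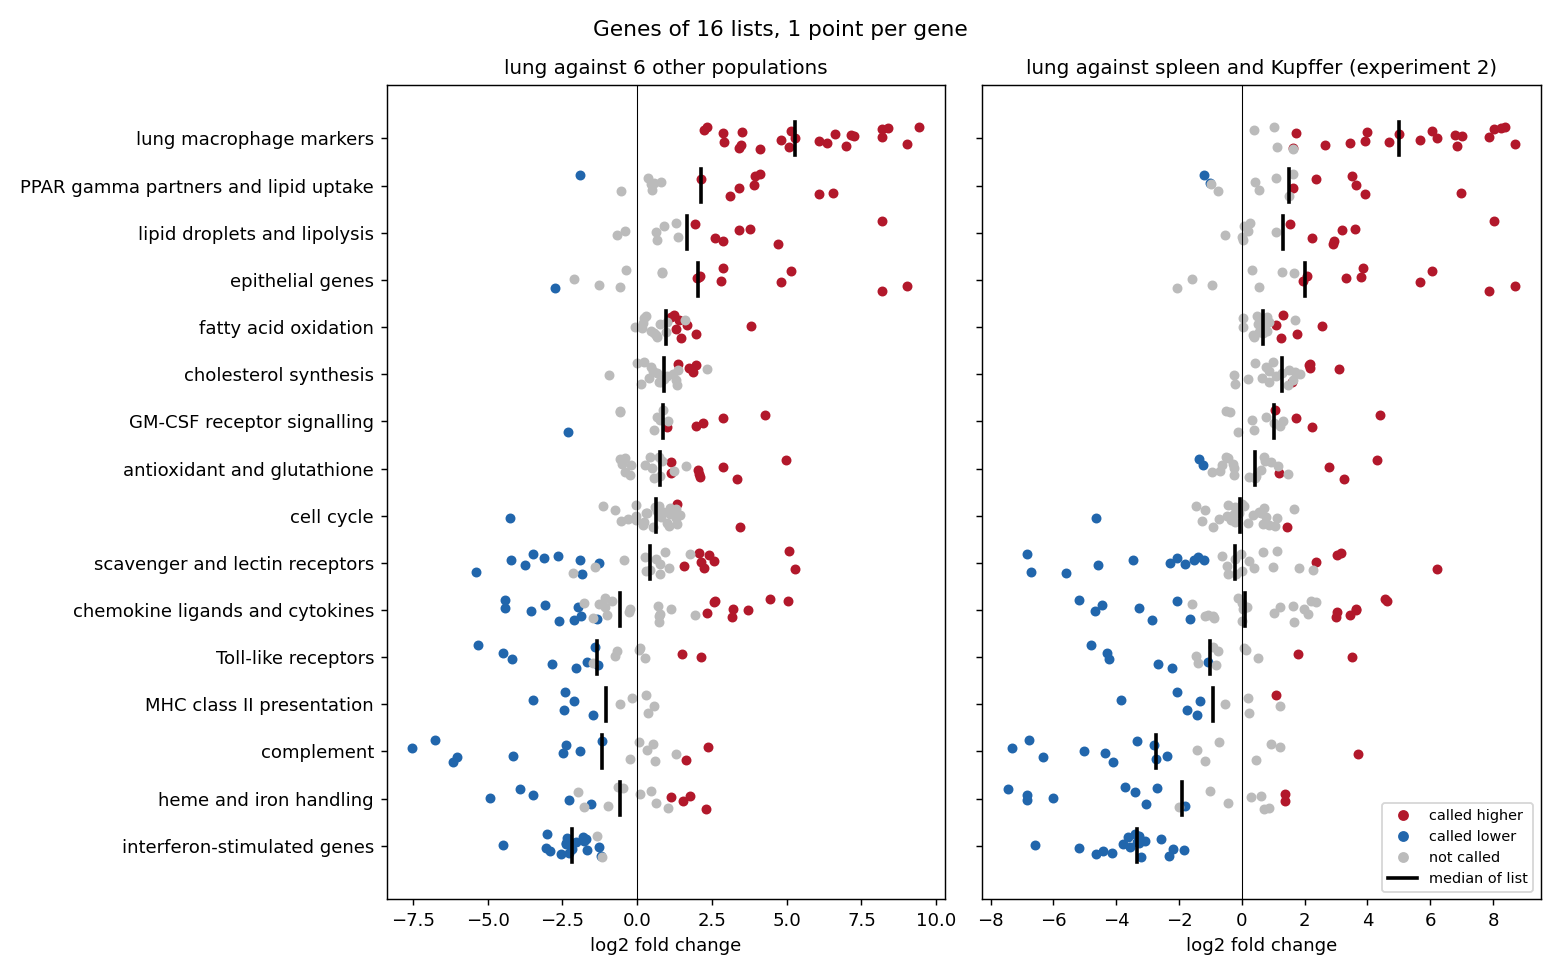
Log2 difference (x axis) of every tested gene of 16 lists (y axis), between lung macrophages and the mean of the 6 other populations at the left and the mean of spleen and Kupffer cells at the right, with 1 point per gene in red where called higher, blue where called lower and grey where not called, and a black line at the list median. Genes at 0 in a whole group stand at a value that depends on the pseudocount; lung markers and lipid droplet genes lie mostly right of 0, and interferon-stimulated genes all lie left of it.

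Both chains of the GM-CSF receptor had their highest macrophage values in the lung libraries. Of 13 genes 5 were called higher and 1 lower against 6 (3 without lung replicate 1 and 2 without lung replicate 2 were called higher), and 4 higher within experiment 2. Csf2rb, the shared beta chain, had 971 and 601 normalised reads in lung libraries and 14.7 to 336 (median 150.5) in the 12 others, with no overlap (difference 2.88 ± 0.37, within experiment 2 1.74 ± 0.42). Csf2ra, the chain specific for GM-CSF, had 539 and 530.2 in lung libraries and 128 to 498 (median 285) elsewhere. Both lung values lay above all 12 others, though its difference of 0.86 ± 0.20 was below the size needed for a call against 6. Within experiment 2 it was called (1.05 ± 0.23, adjusted p 0.00283), also without either lung library (0.0258 and 0.0322). Csf2rb2 was called at 1.01 ± 0.34 against 6, a call that ended without lung replicate 1 or 2 (adjusted p 0.243 and 0.132). Its call within experiment 2 held without either (2.23 ± 0.38, adjusted p 0.00967 and 0.00367). Cish, a feedback inhibitor induced by STAT5, had 97.3 and 99.6 in lung libraries and 0 to 20 (median 5.53) elsewhere (4.27 ± 0.66, within experiment 2 4.40 ± 0.75). Socs3, a feedback inhibitor of STAT3 signals, had 9.48 and 27.7 in lung libraries, and differed by -2.31 ± 0.39 against 6 and -0.11 ± 0.44 within experiment 2, where it was not called.

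Genes best known from epithelia were high in the lung libraries. Of 16 tested 9 were called higher and 1 lower against 6, with a median of 2.03, and 9 higher within experiment 2. Among these 9, Krt79, Krt19, Perp and Plet1 are also lung markers of the list above, so their direction is no independent evidence. With 1 lung library left out the higher count against 6 was 5 without lung replicate 1 and 4 without lung replicate 2, and the lower count 3 without lung replicate 1 and 0 without lung replicate 2. Krt19, a keratin, had 2063 and 2286 normalised reads in lung libraries, against 1324 and 1141 in large intestine, 811 and 237 in small intestine and 3.03 to 71.6 in spleen and Kupffer libraries. Cdh1, E-cadherin, had 20.9 and 47.6 in lung libraries, against 55.4 and 48.9 in large intestine and 0 in 6 of the 12 others, and its call against 6 ended without lung replicate 2 (adjusted p 0.0664), whereas that within experiment 2 held without either lung library (3.86 ± 0.65, adjusted p 0.00104 and 0.0123). Epcam had 31 and 9.96 in lung libraries and 87.2 and 77.9 in large intestine macrophages, and its call against 6 ended without either lung library (adjusted p 0.348 and 0.0674) while that within experiment 2 held (0.0459 and 0.00562). Cdh1 and Epcam were thus as high or higher in large intestine libraries, and Krt19 was high in the gut too, whereas Krt79 reached at most 2.65 and Plet1 at most 5.97 there. Lgals3, galectin-3, had 5486 and 5025 in lung libraries and 27.8 to 3373 (median 1199.7) in the others, with no overlap (difference 2.79 ± 0.20). All 12 others held it, so Lgals3 is not particular to epithelia. It made up most of the list's sum of 9467 and 9193 in lung libraries.

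Transcripts of alveolar epithelial cells were also found in these libraries. Sftpc, surfactant protein C of alveolar type 2 cells, had 738 and 846 normalised reads in lung libraries and 0 to 11.4 in the 12 others (difference 8.58 ± 0.76). Sftpa1, another surfactant protein, had 76.5 and 127 in lung libraries, Sftpb 102 and 91.9, and Sftpd 41.7 and 41, while at least 10 of the 12 others were at 0 for each of these 3. Slc34a2, the phosphate transporter of type 2 cells, had 28.4 and 36.5 in lung libraries. All 5 were called higher against each of the 6 populations. Sftpa1, Sftpd and Slc34a2 passed the filter on low values only through the lung libraries. So did Lamp3 and Cxcl15 of the type 2 list and Scgb1a1 of the airway list, and higher calls of such genes are no independent evidence. Of 12 type 2 markers 9 were called higher and 1 lower (Etv5), and none was at 0 in lung. Their summed level was 2842 and 2941 in lung libraries, against 294 to 367 in spleen and Kupffer libraries and 174 to 937 in experiment 1. The sum is not particular to type 2 cells, since it came to 3037 and 3126 in monocytes and 4481 and 4709 in neutrophils. Lyz1, a lysozyme, made up more than any other member, with 1591 and 1499 in lung libraries, 1543 and 1515 in monocytes and 3717 and 3995 in neutrophils. Napsa, an aspartic protease, had 154 and 158 in lung libraries, 1364 and 1485 in monocytes and 653 and 602 in neutrophils. Sftpc, Sftpb, Sftpa1, Sftpd, Slc34a2 and Cxcl15 reached at most 15.4 in monocyte and neutrophil libraries. With 1 lung library left out 4 without lung replicate 1 and 4 without lung replicate 2 were called higher against 6, and as many within experiment 2, since genes seen in lung alone then fail the filter. Ager, of type 1 cells, had 60.1 and 69.7 in lung libraries, and Scgb1a1, of airway club cells, had 87.2 and 6.64. In the type 1 and airway list 2 of 5 tested genes were called higher (1 without lung replicate 1), its sum was 258 and 118 in lung libraries, and Pdpn, Rtkn2 and Foxj1 were at 0 there. In bulk RNA, fewer cells of a type and less RNA per cell cannot be told apart, and the part of epithelial RNA in the epithelial gene counts above was not tested.

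Markers of other blood cells differed between the 2 lung libraries. Neutrophil markers summed to 1982 and 4098 in lung libraries, against 394.5 to 3583 in spleen and Kupffer libraries and 306 to 1180 in experiment 1. Of 15 tested 10 were called higher and 1 lower against 6, but 1 higher and 1 lower within experiment 2, of which none was left without lung replicate 2. Ngp, a granule protein, had 382 and 908 normalised reads in lung libraries, 457 and 783 in spleen and 559 and 62.6 in Kupffer libraries, and 56718 and 74200.5 in neutrophils themselves. T and NK cell markers summed to 80.3 and 217 in lung libraries, against 36.4 to 102 in spleen and Kupffer libraries. In experiment 1 they summed to 154.5 and 159 in small intestine, 224 and 260 in large intestine, and 0 to 5.42 in microglia and peritoneal libraries. Both large intestine sums thus lay above both lung sums. Of 8 tested, 6 were called higher against 6 and 3 within experiment 2, and both counts fell without lung replicate 2. Among endothelial markers 3 of 9 were called higher against 6 (1 without lung replicate 1 and 2 without lung replicate 2), and 1 higher and 1 lower within experiment 2 (0 higher without either lung library), with Cldn5, a junction protein, at 193 and 69.7 in lung libraries and 43.7 and 43.4 in Kupffer cells. The monocyte list, which holds Chil3, had 4 of 9 called higher and 2 lower against 6 (2 and 0 without lung replicate 2), and its members Ccr2 and Plac8 differed by -1.63 and -1.34.

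**Figure D4:**
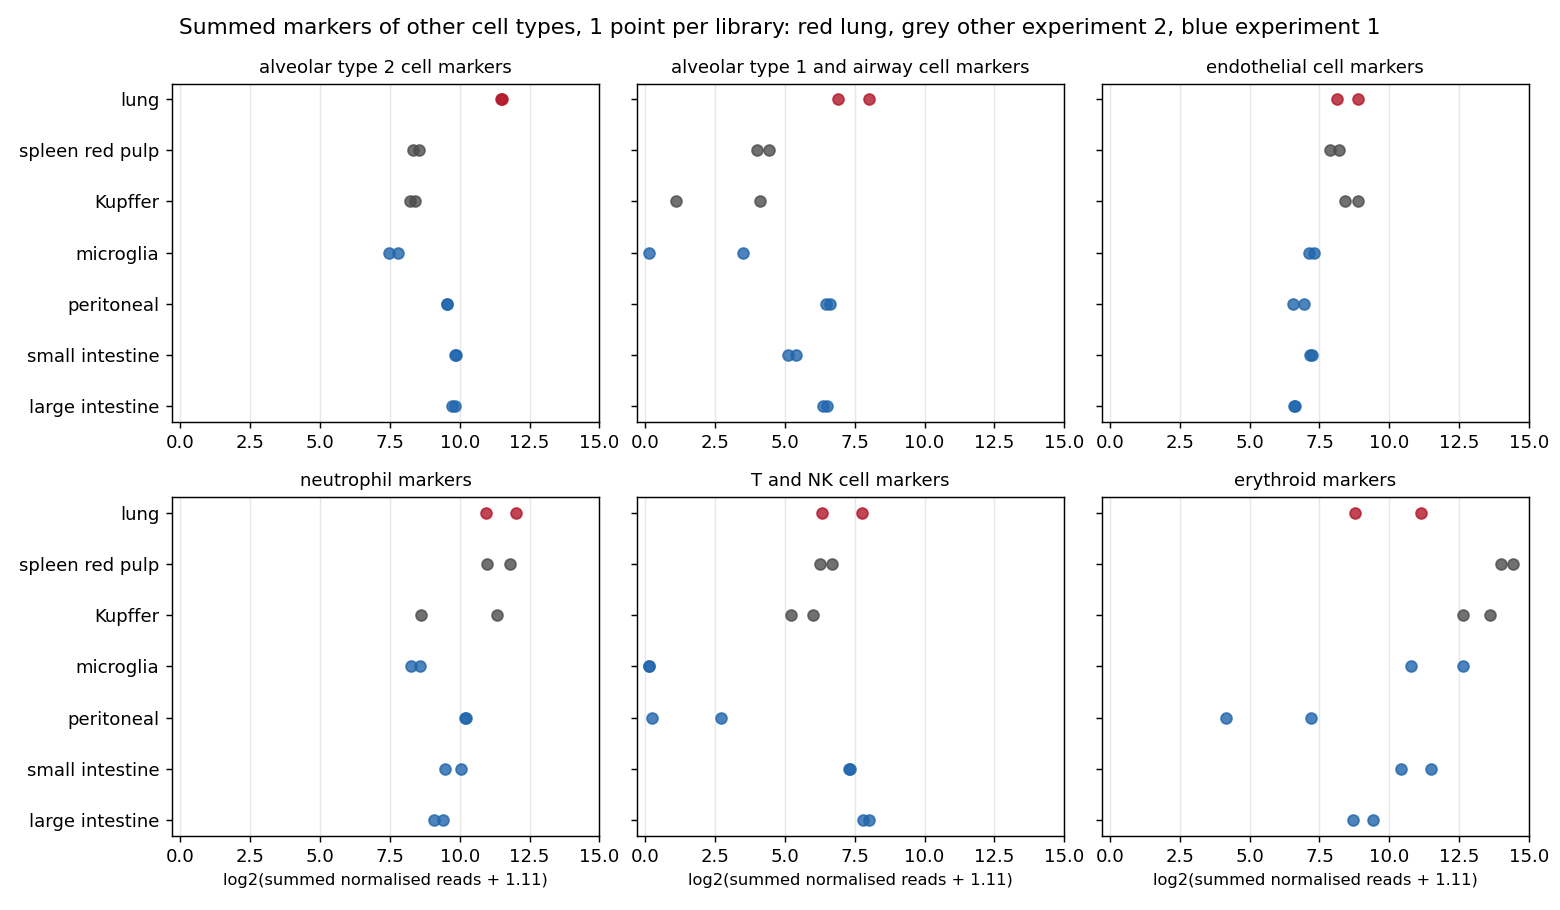
Summed markers of 6 other cell types, 1 panel each, as log2(summed normalised reads + 1.11) on the x axis in the 7 macrophage populations down the y axis, with lung in red at the top, the other experiment 2 populations in grey and experiment 1 in blue (1 point per library). Sums of type 2 cell markers, 2842 and 2941 in the lung libraries, lie right of all 12 others shown (monocytes and neutrophils, which are not drawn, reach 3037 to 4709), whereas neutrophil and endothelial sums overlap with those of spleen or Kupffer libraries.

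Complement genes were low in lung macrophages and included C1qb, the lowest of the 10 lowest named genes. Of 17 tested 9 were called lower and 2 higher against 6, beside 10.0% and 8.28% of all genes, with a median of -1.16, and 10 lower and 1 higher within experiment 2, with a median of -2.72. C1qb, a chain of the C1q recognition protein, had 90.4 and 22.1 normalised reads in lung libraries, against 5535 to 11823 (median 10052) in the 12 others. C1qa had 80.9 and 27.7 against 1246 to 9807 (median 6559), and C1qc had 77.8 and 24.4 against 1382 to 5528 (median 3071). No lung value came near any of the others, and the differences were -7.53 ± 0.31, -6.76 ± 0.34 and -6.02 ± 0.33 against 6 and -7.32 ± 0.36, -6.78 ± 0.38 and -6.34 ± 0.37 within experiment 2. All 3 were called lower against each of the 6 populations. The lower calls against 6 numbered 7 without lung replicate 1 and 6 without lung replicate 2. The list summed to 906 and 774 in lung libraries, and to at least 10330 in every other macrophage library. C3ar1, the receptor for the fragment C3a, had 1.26 and 0 in lung libraries, against 3.99 and 4.38 in spleen libraries and 141 to 307 in the other 10. The 2 genes called higher were Cfb and C3 of the alternative pathway, with 183 and 220.3 and 121 and 145 in lung libraries, against 42.9 to 161 and 65.6 to 127 in spleen and Kupffer libraries. Neither was called within experiment 2 (adjusted p 0.101 and 0.47), and the C3 call against 6 ended without lung replicate 2 (adjusted p 0.0532).

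The lowest other genes included a transcription factor of mature macrophages. Maf, known to restrain self-renewal of macrophages, had 3.79 and 0 normalised reads in lung libraries, against 22.6 to 362 (median 190.2) in the 12 others. It was called lower against each of the 6 populations. Its difference was -6.09 ± 0.47 against 6 and -6.68 ± 0.53 within experiment 2. Pdlim4, an actin-associated PDZ and LIM domain protein, had 2.53 and 2.21 in lung libraries, against 148 to 551 (median 286) elsewhere (-6.36 ± 0.24). Aif1, the actin-bundling protein IBA1 used to stain microglia, had 25.3 and 9.96 in lung libraries, against 74.3 and 63.2 in peritoneal macrophages and 1360 to 3708 in the other 10 (-6.12 ± 0.27). Dnase1l3, a secreted DNase, had 1.90 and 0 in lung libraries, against 6.49 to 1619.5 (median 185) elsewhere (-6.13 ± 0.42). For Maf, Pdlim4, Aif1 and Dnase1l3 the lung libraries lay below all 12 others, which was a condition for being among the 10 lowest. Abca9, a transporter of the ABC family, was listed at 0 in both lung libraries and at 14 to 382 in the others, and Tmem37 stood at 5.06 and 4.43 in lung libraries against 207 to 749.

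Within experiment 2, 8 of 51 tested lineage and tissue factors were called higher and 11 lower, with a median of -0.12. Against 6, 9 were called higher and 16 lower. Their median against 6 was -0.57, or -0.05 with genes at 0 in lung set to the bound that 3 reads give. The higher calls numbered 7 without lung replicate 1 and 4 without lung replicate 2, and the lower ones 9 without either. Runx2, the factor of bone formation, had 80.3 and 43.2 normalised reads in lung libraries, against 41.6 and 27.2 in small and 21.2 and 6.40 in large intestine macrophages, and was listed at 0 in the other 8 libraries. Bhlhe41, known to sustain alveolar macrophage self-renewal with Bhlhe40, had 33.8 and 122 in lung libraries, against 229 and 225 in microglia and 0 to 18.9 elsewhere. Its call against 6 ended without lung replicate 2 (adjusted p 0.177), whereas that within experiment 2 held (4.70 ± 0.74, adjusted p 0.0108 without that library). Bhlhe40 had 55.6 and 107 in lung libraries, against 161 and 163 in peritoneal macrophages, and its calls against 6 and within experiment 2 ended without lung replicate 2 (adjusted p 0.16 and 0.271). Cebpb, a C/EBP factor, had 930.02 and 1175 in lung libraries, against 789 and 689.7 in peritoneal macrophages and at most 278 in the rest (2.73 ± 0.30, within experiment 2 2.83 ± 0.34). Lung and peritoneal libraries were thus the high ones for both Bhlhe40 and Cebpb. Egr2, a zinc finger factor, had 39.2 and 49.8 in lung libraries and 0 to 13 (median 4.08) elsewhere, with no overlap, and its call against 6 ended without lung replicate 2 (adjusted p 0.0593), while that within experiment 2 held (0.017).

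**Figure D5:**
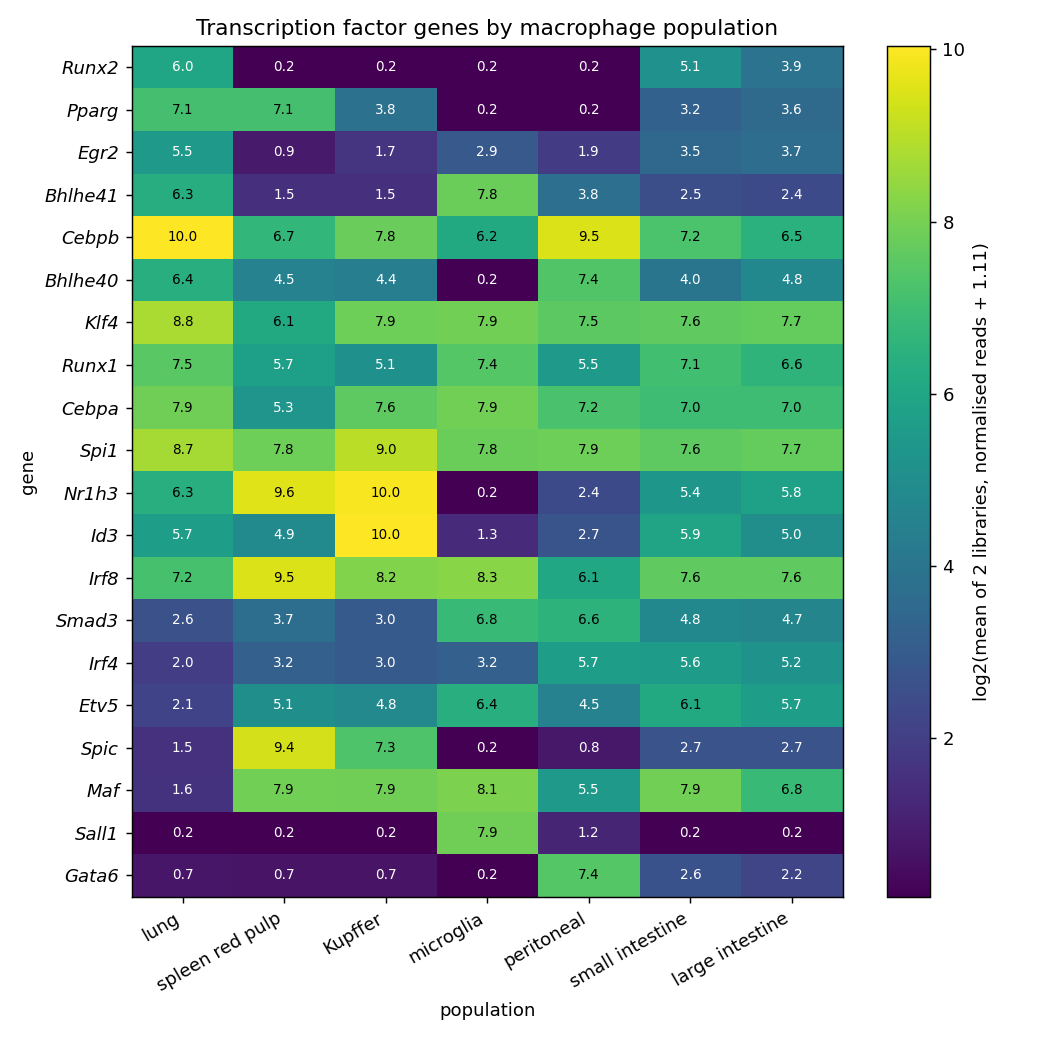
Log2(mean of 2 libraries in normalised reads + 1.11), printed in each cell and shown by colour, of transcription factor genes (rows) in each macrophage population (columns), with lung at the left. Maf has its lowest value in lung, and Pparg, Runx2, Bhlhe41 and Cebpb are each high in lung and in at least 1 other population.

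Interferon-stimulated genes were low in lung macrophages. Of 19 tested 17 were called lower and 0 higher against 6, with a median of -2.19 (-1.98 with genes at 0 set to their bound), and all 19 were called lower within experiment 2, with a median of -3.33. Against 6, 9 without lung replicate 1 and 13 without lung replicate 2 were called lower. The list summed to 252 and 399.6 normalised reads in lung libraries, against 3414 to 6601 in spleen and Kupffer libraries and 608 to 1491 in experiment 1. Rsad2, the antiviral enzyme viperin, had 5.69 and 3.32 in lung libraries, against 900.4 and 565 in Kupffer cells, 414 and 368 in spleen red pulp macrophages and 32.6 to 144 in experiment 1. Irf7, the factor that amplifies interferon responses, had 34.8 and 63.1 in lung libraries, against 909.95 to 1883 in spleen and Kupffer libraries and 34.8 to 291 in experiment 1. Ifit1, an RNA-binding antiviral protein, had 5.69 and 5.53 in lung libraries and 14 to 127 (median 52.2) in the others. Rsad2 and Ifit1 did not overlap with any other population and were called lower against each, whereas Irf7 touched the microglia range (34.8 and 55.6). Differences were -4.48 ± 0.25, -2.56 ± 0.23 and -3.01 ± 0.26 against 6 and -6.59 ± 0.29, -4.64 ± 0.27 and -3.41 ± 0.30 within experiment 2. Isg15, a ubiquitin-like protein, had 46.1 and 122 in lung libraries, and its call against 6 ended without lung replicate 1 (adjusted p 0.0516), while that within experiment 2 held (-3.62 ± 0.36, adjusted p 7.47e-05).

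Some promoters of this group hold a motif by which interferon-activated factors are known to act. Capitals mark GAAA written again after 2 free bases, a short form of the interferon-stimulated response element, searched on both strands, in the windows of Rsad2 and Ifit1 (RefSeq, GRCm38.p6), the 2 members called lower against each population. The match of Rsad2 and both matches of Ifit1 read on the opposite strand.
Rsad2, chr12:26456403-26456702, minus strand: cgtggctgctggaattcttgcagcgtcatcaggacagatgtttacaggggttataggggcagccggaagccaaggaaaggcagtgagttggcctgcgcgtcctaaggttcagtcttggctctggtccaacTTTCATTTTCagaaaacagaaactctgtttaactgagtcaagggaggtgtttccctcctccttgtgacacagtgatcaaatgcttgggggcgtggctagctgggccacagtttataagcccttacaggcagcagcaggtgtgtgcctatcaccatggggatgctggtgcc
Ifit1, chr19:34640639-34640938, plus strand: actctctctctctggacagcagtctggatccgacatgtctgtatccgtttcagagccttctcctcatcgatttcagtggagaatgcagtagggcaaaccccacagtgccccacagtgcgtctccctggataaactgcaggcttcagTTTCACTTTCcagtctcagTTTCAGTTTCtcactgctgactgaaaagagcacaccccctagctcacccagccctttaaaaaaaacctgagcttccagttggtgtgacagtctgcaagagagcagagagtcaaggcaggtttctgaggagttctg
A promoter was found for 13 genes of the list, of which 7 held it (53.8%), beside 3.99% of all 27025 promoters, 7.73% of those of genes called lower and 4.08% of those called higher. The match alone does not tell whether the motif was in use.

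Toll-like receptor and antigen presentation genes were called lower more often than higher. Of 16 Toll-like receptor genes 8 were called lower and 2 higher against 6, with a median of -1.35, and 6 lower and 2 higher within experiment 2. The 2 higher ones against 6 became 1 without either lung library. Tlr1, which senses lipopeptides together with Tlr2, had 0.632 and 0 normalised reads in lung libraries, against 12.6 to 174 (median 50.1) in the 12 others (difference -5.32 ± 0.38). Tlr2 went the other way, with 272 and 275 in lung libraries and 33.6 to 346 (median 93.7) elsewhere, overlapping with microglia (203 and 346). Tlr9, the sensor of unmethylated DNA, had 3.16 and 5.53 in lung libraries, a range that overlapped with peritoneal macrophages (13.9 and 1.81), against 29.3 to 293 in the rest (-4.18 ± 0.45). Of 10 class II genes 5 were called lower and 0 higher against 6, with a median of -1.03, and 5 lower and 1 higher within experiment 2 (3 and 0 without lung replicate 2). H2-Aa, a class II chain, had 304 and 394 in lung libraries, 252 and 319 in peritoneal macrophages, 299 and 217 in microglia, and 18129.6 and 16409 in large intestine macrophages. Lung thus lay with the peritoneal and microglia libraries, and the gut libraries were far above all others. Ciita, the class II transactivator, had 4.42 and 5.53 in lung libraries, against 56.5 to 145 in spleen and Kupffer libraries (within experiment 2 -3.86 ± 0.45).

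Scavenger receptors, lectins and integrins moved in both directions. Of 29 receptors 8 were called higher and 9 lower against 6, and 4 higher and 11 lower within experiment 2. Without lung replicate 2 the higher calls fell to 5 against 6 and to 2 within experiment 2. Clec7a, the β-glucan receptor dectin-1, had 883 and 614 normalised reads in lung libraries, against 525 and 636 in small intestine macrophages and 21.9 to 292 in spleen and Kupffer libraries (difference 2.40 ± 0.23, within experiment 2 3.02 ± 0.26). Timd4, a receptor for apoptotic cells, was listed at 0 in both lung libraries, against 287 and 352 in Kupffer cells and 645 and 366 in peritoneal macrophages. Cd163, the receptor for haemoglobin and haptoglobin, had 5.69 and 0 in lung libraries, against 228 to 409.6 in spleen and Kupffer libraries. Among 16 integrins 4 were called higher and 4 lower against 6, and 2 higher and 4 lower within experiment 2. Against 6 the higher ones fell to 2 without lung replicate 2, and the lower ones to 2 without lung replicate 1. Itgam had 12 and 4.43 in lung libraries, 12 and 8.76 in spleen and 14.6 and 38.4 in Kupffer libraries, and 109 to 653 in experiment 1, so it was called lower against 6 (-3.59 ± 0.33) and not within experiment 2 (-0.98 ± 0.37, adjusted p 0.0764). Itgb2, the β2 chain that pairs with it and with Itgax, had 739.9 and 747 in lung libraries, above all 12 others (136 to 653 (median 229.7)), the highest being peritoneal macrophages. Itga9, of a receptor for extracellular matrix, had 1.26 and 0 in lung libraries, against 23.5 to 200.1 (median 104) elsewhere (-5.84 ± 0.44).

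Chemokines and cytokines also split. Of 32 tested 8 were called higher and 9 lower against 6, and 7 in each direction within experiment 2. Without lung replicate 2 the higher calls fell to 4 in both comparisons, and without lung replicate 1 the lower calls within experiment 2 fell to 4. The median against 6 was -0.57, or -0.26 with genes at 0 set to their bound. Spp1, osteopontin, had 66.4 and 75.3 normalised reads in lung libraries, against 0 to 8.76 (median 0.950) elsewhere (difference 5.04 ± 0.74). Ccl6, a macrophage chemokine, had 4249 and 5103 in lung libraries, against 139.5 to 1480.4 (median 698) elsewhere (3.22 ± 0.26, within experiment 2 3.63 ± 0.29). Neither overlapped with another population, and both were called higher against each. Il1rn, the antagonist of the interleukin-1 receptor, had 182 and 203 in lung libraries and 0 to 114 (median 20.6) in the others (3.69 ± 0.39). Cxcl15, known from lung epithelium, had 32.2 and 18.8 in lung libraries and was at 0 in 10 of the 12 others, beside the type 2 cell markers above. Cxcl2 differed widely between the lung libraries, 90.7 and 497, and its calls against 6 and within experiment 2 ended without lung replicate 2 (adjusted p 0.364 and 0.471). On the lower side, Cxcl16, a membrane-bound chemokine, had 5.69 and 8.86 in lung libraries, against 14.9 and 17.5 in spleen and 44.2 to 904 in the other 10 (-4.43 ± 0.49). Ccl24, eotaxin-2, had 1.26 and 0 in lung libraries, against 2.78 to 314 (median 26.8) elsewhere (-4.40 ± 0.54). Of 15 chemokine receptors 4 were called higher and 3 lower against 6, and 3 in each direction within experiment 2. The higher calls were fewer without either lung library. Cx3cr1, the fractalkine receptor, had 31.1 and 5.53 in lung libraries, against 7337 and 8714 in microglia and 63.1 to 1356 in the rest (-5.32 ± 0.41).

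Iron handling set lung apart from spleen and liver. Of 18 genes 4 were called higher and 5 lower against 6, and 2 higher and 9 lower within experiment 2, with medians of -0.56 and -1.90. Without lung replicate 2 the lower calls fell to 3 against 6, and the higher ones to 1 within experiment 2. Slc40a1, the iron exporter ferroportin, had 4.42 and 4.43 normalised reads in lung libraries, against 1037 and 793 in spleen and 962 and 1112 in Kupffer libraries and 0 to 107 in experiment 1. Its difference was -3.93 ± 0.46 against 6 and -7.45 ± 0.52 within experiment 2, and both lung values lay within the range of the peritoneal libraries (0 and 5.42). Hmox1, which breaks down heme, had 148 and 126 in lung libraries, against 3999.6 and 4594 in spleen, 1033 and 551 in Kupffer libraries and 31 to 171 in experiment 1. It was called lower within experiment 2 (-3.71 ± 0.31) and not against 6 (-0.65 ± 0.28, adjusted p 0.108). Slc11a1, the phagosomal metal transporter NRAMP1, had 29.7 and 12.2 in lung libraries, against 340.3 to 1485 (median 462) in the others, and was called lower against each of the 6 (-4.91 ± 0.23). The ferritin heavy chain gene Fth1 had 10352 and 9258 in lung libraries, above all 12 others (1001 to 7637 (median 3768)), with differences of 1.54 ± 0.25 and 1.38 ± 0.28. Erythroid markers, whose sum was 437 and 2242 in lung libraries against 6340 to 22160 in spleen and Kupffer libraries and 16.6 to 6383 in experiment 1, were called lower for 5 of 7 within experiment 2 (2 without lung replicate 1), and their part in the iron gene values was not tested.

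Among genes against oxidants 8 of 23 were called higher and 0 lower against 6 (5 without lung replicate 1 and 5 without lung replicate 2), and 4 higher and 2 lower within experiment 2 (1 lower without lung replicate 2). Gstm1, a glutathione transferase, had 825 and 608 normalised reads in lung libraries, against 262 and 250.1 in large intestine macrophages and 5.56 to 88.9 in the rest (difference 3.35 ± 0.31, within experiment 2 3.24 ± 0.36). Of the 8, Slc7a2 is an arginine transporter and not itself a gene against oxidants. Slc7a2 had 97.3 and 78.6 in lung libraries, against 0 to 17.5 (median 1.17) elsewhere (4.99 ± 0.62). Neither gene overlapped with other macrophages. The list counts in this paragraph stand beside 8.28% of all genes called higher and 10.0% lower against 6, and 7.90% and 10.2% within experiment 2. The cell cycle list did not exceed these shares, with 1 of 28 called higher and 1 lower within experiment 2. Against 6, 2 were called higher and 1 lower. Of these, Ccnd2 had 539.8 and 718 in lung libraries, between spleen (762 and 808) and Kupffer cells (50.9 and 86.8), whereas Ccnd1 had 17.1 and 2.21, against 90.9 to 232 (median 140.1) in the others (-4.24 ± 0.41). The 2 D-type cyclins thus stood in opposite directions against 6, and the Ccnd2 call within experiment 2 (1.44 ± 0.42) ended without either lung library (adjusted p 0.0514 and 0.208). The third, Mki67, lost its call without either lung library (adjusted p 0.0588 and 0.43). Glycolysis genes were called higher for 3 of 18 and lower for 5 against 6, where the lower ones fell to 3 without lung replicate 1 and 2 without lung replicate 2. Within experiment 2 the glycolysis calls were 4 higher (2 without lung replicate 1) and 1 lower. TGF-β pathway genes were called higher for 1 of 17 (0 without lung replicate 2) and lower for 3 against 6, and 4 higher and 3 lower (1 lower without lung replicate 2) within experiment 2. Retinoic acid pathway genes were called higher for 2 of 13 and lower for 0 against 6, and 2 higher and 1 lower within experiment 2, the lower count being 3 without lung replicate 1 and 0 without lung replicate 2. Immediate early and heat shock genes were called higher for 2 of 19 and lower for 3 against 6, with 2 higher and 0 lower without lung replicate 1, and 0 higher and 5 lower without lung replicate 2. Within experiment 2 they were 3 higher (1 without lung replicate 2) and 1 lower, the lower count being 0 without lung replicate 1 and 4 without lung replicate 2. Hspa1a, an inducible heat shock chaperone, had 5.69 and 65.3 in lung libraries, and its call against 6 ended without lung replicate 1 (adjusted p 0.194). Fc receptor genes gave 0 higher and 2 lower of 10 against 6, and 1 higher and 2 lower within experiment 2. Fcgr1, the high-affinity receptor for IgG, had 123 and 116 in lung libraries, against 119 to 1105 (median 483) in the others (-1.87 ± 0.28, within experiment 2 -1.92 ± 0.32).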

How the data were processed

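The authors' deposited table holds normalised read signal for 20814 RefSeq transcripts in 18 libraries. Reads were aligned with TopHat to mm9, per the submitters' processing notes, and the version, counter, annotation and normalization were not given in the sources used here. Each column behaves largely as reads divided by 1 factor, with its most common positive value taken as a single read. Of its positive values, 86.6% to 88.9% are whole multiples of that value within 0.01 of a read. That is too few for a count model, so the signal was tested on a log scale. Reads in genes ranged from 588172 to 1580371 per library, and a floor of 3 reads applies per library. Transcripts were matched to gene symbols by accession (97.9%), and the transcript with the highest mean stood for each of 16194 genes.

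A pseudocount of 1.11 (a value set from the median column total) was added, genes at 5.53 or more in at least 2 libraries were kept (11998), and limma 3.58.1 in R 4.3.3 was fitted with 1 factor of 9 populations, an intensity trend and 9 residual degrees of freedom, with Benjamini-Hochberg adjustment over all genes tested. Lung was contrasted with the unweighted mean of the 6 other macrophage populations, with the mean of spleen and Kupffer cells, and with each of the 6. The fit was tested on simulated data with known changes planted in lung alone. All other populations had the same mean for each gene there, unlike in the real libraries, so that test does not speak for the calls reported. Genes named are the 15 highest and 10 lowest called genes whose lung libraries lie outside all 12 others, predicted genes aside, all lung markers, and for each list at most 5 called members, taken by size of change, with 3 others. Some genes that this rule takes in are not reported here. Members and lists were chosen with earlier results of these data known. Alternatives were other pseudocounts, filters, scalings, fits, sample sets, a replicate block and leaving out each library. Promoter windows came from RefSeq (GRCm38.p6).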

Additional observations from a re-analysis of the deposited data

Results flagged for a closer look

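Monocytes and neutrophils of the bone marrow are no part of the comparisons, yet for 3 of the genes highest in lung 1 or both of them stood above every library of the 6 other macrophage populations. Chil3 had 4672 and 8072 normalised reads in lung libraries, and averaged 778.6 in monocytes (932 and 625) and 11710 in neutrophils (11898 and 11522). Wfdc21 had 332 and 479 in lung libraries and averaged 5302 in neutrophils (5129 and 5474). Plet1 had 761 and 793 in lung libraries and averaged 6.742 in neutrophils (6.89 and 6.59). The limit of 3 reads was 4.13 and 6.59 in these neutrophil libraries, so the lower value lay at its limit. Neutrophil markers in the lung libraries summed to 1982 and 4098 normalised reads, and their part in the Chil3 and Wfdc21 values was not tested. Ltf, a neutrophil granule protein, read 258 and 449 in lung libraries and 36042 and 42052 in neutrophils.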

How the results depend on the processing

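The counts of calls against 6 and within experiment 2 stayed within 1.5 times of those reported under other pseudocounts, filters, scalings, mean-variance handling, sample sets, transcript choice and the replicate block. No call of a named gene turned to the other direction there, and genes without a call were not checked in that way. Clec4f, a Kupffer cell marker not called against 6 (-0.20), differed by -3.11 without lung replicate 1 and by 2.72 without lung replicate 2. With the replicate number as a block, 88 genes were called higher and 95 lower against each of the 6 populations, in place of 171 and 151. Same-numbered libraries did not deviate together (15 correlations between -0.0409 and 0.0507, 0 above 0.1), so the numbers give no pairing. The block left 1778 calls against 6 and 1940 within experiment 2, beside 2195 and 2167. Leaving out each library in turn gave 540 to 1078 genes higher and 546 to 1295 lower against 6, 524 to 1119 higher and 699 to 1243 lower within experiment 2, and 71 to 173 higher and 109 to 264 lower against each of the 6. The lowest of these counts all came without lung replicate 2, and without lung replicate 1 the counts against each were 85 higher and 264 lower. A lone lung library was assumed to vary like the other groups. Higher calls made up 45.3% of all calls against 6, and at most 50.0% (quantile normalization). Without the filter on low values the median difference over all genes against 6 was -0.12. Depth limits low genes most, since 3 reads came to 1.90 normalised reads in lung replicate 1 and 3.32 in lung replicate 2.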
